A study of Mus musculus with 10 samples.

Results

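The cytosolic ribosome is built from ribosomal RNA and a set of proteins that are nearly all made from single genes of the Rps series (small subunit) and the Rpl series (large subunit). In the cortex of 6-month-old mice, 84 genes carried such a symbol and were measured above background, of 22198 genes in the expression table. They were the symbols that begin with Rpl or Rps followed by a digit, together with Rpsa, Rplp0, Rplp1 and Rplp2. Of 115 symbols that fitted, 10 genes of the S6 kinases and 15 pseudogene symbols with -ps were left out. A further 6 were left out because they lay under 0.5 FPKM, a read density corrected for the length of the transcript and for the size of the library, in more than 5 of the 10 libraries. The 84 hold 77 genes of standard ribosomal proteins, 31 of the small and 46 of the large subunit. The rest are 4 paralogues (Rpl7l1, Rpl22l1, Rpl36al and Rps27l), 2 retrogene symbols (Rps27rt and Rpl37rt) and Rps19bp1, whose product binds the ribosomal protein RPS19 and is not itself part of the ribosome.

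RNA had been sequenced from brain cortex in 10 libraries of untreated mice. The genotype was wild type for Mic19 in the 5 labelled ctrl and a Mic19 knockout in the 5 labelled BKO. Mic19 is the product of Chchd3 and belongs to MICOS, a complex that holds the cristae of mitochondria in shape. Strain, sex and the promoter that drives the deletion are not given in the sources used here, nor is whether separate mice were used for separate libraries. A p-value here therefore refers to the spread of these libraries and not to that of mice. The question the comparison was set up for was the expression of inflammation genes.

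Ribosomal protein mRNAs are among the most abundant of any cell and are made in step, since most of the proteins enter the particle in equal numbers. Most begin with a C followed by an unbroken run of pyrimidines, the 5' terminal oligopyrimidine (TOP) motif, through which mTORC1 and LARP1 control how strongly they are translated. In neurons and glia these mRNAs are also found far from the cell body, in processes where local translation takes place.

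Several facts of the libraries bear on all values below. The level of Chchd3 under the label BKO, 88.2 ± 4.54 FPKM (SD, n = 5), was not below that under the label ctrl, 78.4 ± 3.53 FPKM (SD, n = 5), with a log2 fold change of 0.17 (SE 0.0472, limma adjusted p = 0.0528). A value for the whole gene does not test a deletion of part of it. FPKM values summed to between 730340 and 766786 per library. Markers of cortical neurons were present in every library, with sums of 4983 to 5632 FPKM in ctrl and 4721 to 5135 in BKO, so the labelled tissue was matched by its markers. All 12 oligodendrocyte markers were lower in BKO, with sums of 2990 to 3570 FPKM in ctrl and 1012 to 1367 in BKO, and 4 of 9 astrocyte and 2 of 10 microglia markers were higher. The astrocyte sums were 1904 to 2095 FPKM in ctrl and 2289 to 2527 in BKO, and the microglia sums 451 to 531 and 506 to 601. No marker of these 4 types was at 0 in any library. In bulk tissue, fewer cells of a type and less RNA per cell cannot be told apart, and the part these shifts have in the values of ribosomal protein genes was not tested.

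The TOP motif lies at the very start of a ribosomal protein mRNA, so the starts of a few members are shown here. The lines that follow give 15 bases before and 15 bases from the transcription start in RefSeq, on the gene's own strand in build GRCm38.p6. The longest unbroken run of C and T is in capitals, the first one where runs are equally long. Rps24 stands for a member with a long run at its start. Other members had short runs in the same stretch, with a longest run of 3 bases in Rpl41, Rps15, Rpl23 and Rpl10. It was 4 bases in Rps4x and Rpl22. Rps27 is shown with its retrogene Rps27rt and its paralogue Rps27l, and Rpl37 and Rpl22l1 are shown because their values departed from those of the other members.
Rps24, chr14:24490663-24490692, plus strand: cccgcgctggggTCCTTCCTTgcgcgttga
Rps27, chr3:90213634-90213663, minus strand: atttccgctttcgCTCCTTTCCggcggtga
Rps27rt, chr9:114982725-114982754, minus strand: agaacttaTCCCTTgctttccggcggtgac
Rps27l, chr9:66946071-66946100, plus strand: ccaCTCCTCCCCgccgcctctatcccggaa
Rpl37, chr15:5116598-5116627, plus strand: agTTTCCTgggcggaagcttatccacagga
Rpl22l1, chr3:28805493-28805522, plus strand: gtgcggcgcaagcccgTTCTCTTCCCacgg
In Rps27 the run of 9 spans the annotated start. Rps27rt has its marked run of 6 before the start, and an equally long run, ctttcc, begins at its annotated first base. From the base after its annotated first base, Rps27 reads like Rps27rt from its first base on for 38 bases, while Rpl37 and Rpl37rt shared no stretch longer than 8 bases in their windows. Rps27l had its run of 9 before the start.

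Of the 84 genes, 64 had a RefSeq promoter window, which runs from 250 bases before to 50 bases after the start. A run of at least 8 pyrimidines within 20 bases on either side of the start, read on the gene's own strand, was found in 28 of the 64 (43.8%), against 15.9% of all 27025 windows and 15.7% of those of genes tested here. The letters CCGGAA, the core of sites bound by ETS factors, stood in 32 windows (50%, either strand), against 15.2% of all windows and 25.9% of those of genes tested. AAGATGGCG, a sequence of the YY1 type, stood in 4 (6.25%), against 1.49% and 2.89%. The other motifs searched, on either strand, were nearer to those of genes tested. TATAAA stood in 9.38% of the members' windows against 7.22% of those of genes tested, GGGCGG in 60.9% against 63.2%, CACGTG in 7.81% against 9.72% and CCAAT in 32.8% against 38.2%. A match is a string of letters and not a measured site, and the motifs can overlap one another.

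The level of these genes spanned from 5.61 to 1582 FPKM as a mean over 10 libraries, but the standard genes lay close together. Of the 77, 61 lay between 200 and 600 FPKM, and 24 of all 84 genes reached 500 FPKM. FPKM is scaled to transcript length, so levels of different genes can be set side by side, though only roughly. The FPKM formula and the treatment of reads that match several genes are not given. Genes of the small subunit had a median of 361 FPKM (range 173 to 920) and those of the large subunit a median of 402 FPKM (range 125 to 1582). The highest was Rpl41, which encodes the smallest protein of the ribosome, at 1544 ± 76.7 FPKM (SD, n = 5) in ctrl and 1620 ± 100 FPKM (SD, n = 5) in BKO. Rplp1, Rps15, Rps29 and Rpl21 came next, with means of 937, 920, 784 and 729 FPKM over 10 libraries. Rplp1 and Rps15 overlapped across libraries, and so did Rps29 and Rpl21, so their order is not beyond the spread. Rpl41 lay above every other member in every library.

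The lowest standard gene was Rpl22, whose product binds RNA outside the ribosome as well, at 125 FPKM. Below it came Rpl22l1 at 69.4, Rpl7l1 at 39.5, Rps19bp1 at 33.9 and Rps27l at 21.9 FPKM. The retrogene symbols were lowest, Rpl37rt at 6.17 and Rps27rt at 5.61 FPKM, and their ranges overlapped. The 6 symbols under the limit were Rpl3l, a paralogue of Rpl3 known from muscle, with a mean of 0.467 FPKM, Rpl6l with 0.195, Rpl39l with 0.052, Rpl32l with 0.124, Rps23rg1 with 0.015, and Rpl10l, listed at 0 in all 10 libraries. Ribosomal proteins under other symbols were measured as well. Fau, a ubiquitin-like fusion with a small subunit protein, stood at 299 ± 39.1 FPKM (SD, n = 5) in ctrl and 312 ± 20.7 FPKM (SD, n = 5) in BKO, and Rack1, a scaffold on the small subunit, at 250 ± 16.5 and 264 ± 14.5 FPKM.

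**Figure D1:**
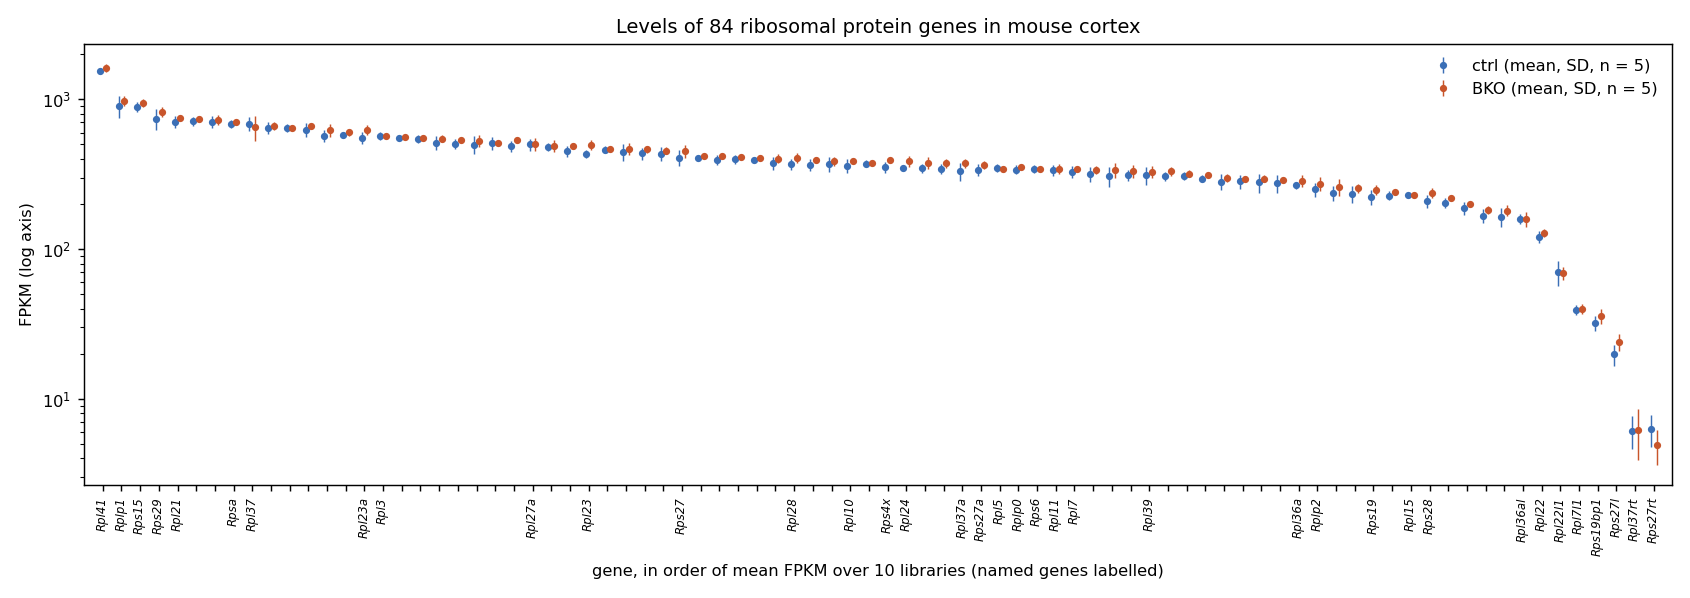
Mean FPKM (log axis) of the 84 genes in the 5 ctrl (blue) and 5 BKO (red) libraries, with the SD between libraries as bars, in order of the mean over all 10, with labels for the named genes. The standard genes form a shallow slope from Rpl41 at 1582 to Rpl22 at 125 FPKM. Rpl36al, at 159 FPKM, lies within it, and the other relatives drop off below it to 5.61 FPKM.

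How far a value belongs to one gene differs between members. In the GENCODE M21 transcripts, 77 of the 84 genes share at least one window of 100 bases with another annotated gene, and the median member shares 41.4% of its windows. Sharing was over 50% for 33 members, among them Rps27 (98.4%), Rps27rt (89.5%), Rpl36a (83.6%) and Rpl23a (80.0%). Rps27l and Rpl22 shared none. How the authors' counting treated reads that match several genes is not given in the sources used here, so the values of genes with much sharing, and of pairs such as Rps27 with Rps27rt and Rpl37 with Rpl37rt, are uncertain. The 11 standard genes with at most 10% shared had a median level of 359 FPKM and a median log2 fold change of 0.09. The 31 with over 50% shared had 373 FPKM and 0.09.

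No ribosomal protein gene changed between the genotypes at an adjusted p under 0.05 (limma on log2(FPKM + 0.5), Benjamini-Hochberg over 14447 genes), where 5.79% of all genes tested did so (3.32% were higher in BKO and 2.46% lower). The lowest adjusted p was 0.0815, for Rpl23, and the highest 0.996. An unadjusted p under 0.05 (limma) was reached by 11 members, 13.1% of the 84, against 17.5% of all genes tested. All 11 were higher in BKO, the direction in which 9.12% of all genes tested reached it. No member had groups that did not overlap, which 6.71% of all genes tested had. Fold changes are log2 values of BKO over ctrl with 0.5 FPKM added to each value, so those of weakly expressed genes come out too small. They were positive for 75 of 84 members (89.3%), against 50% of all genes tested, with a median of 0.09 against -0.0001. The lean was not limited to the members. Of 42 short mRNAs of the respiratory chain 76.2% were positive (median 0.05), and of 20 other TOP mRNAs 75% (median 0.07). Of 78 mitochondrial ribosomal proteins 55.1% were positive (median 0.01). The 731 non-members of at least 50 FPKM with transcripts under 1000 bases had a median log2 fold change of 0.0032. The members move together from library to library, as described below, so these 75 signs are not 75 separate observations. The count of 0 depended on the libraries and the scaling used. Without ctrl 5, 15 of the 84 were higher in BKO, against 512 of 14378 genes tested (3.56%). Ctrl 5 was the highest ctrl library for 79 of the 84, so its omission raises their difference by construction. The count was 2 without BKO 2, where 759 of 14360 genes tested passed in either direction. It was 4 with quantile normalization, where 805 of 14447 did.

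The precision of the comparison can be read from the intervals. The 95% intervals of limma lay inside ±0.4 on the log2 scale for all 77 standard genes, inside ±0.3 for 65 and inside ±0.2 for 29. The small subunit had 30 of 31 positive log2 fold changes with a median of 0.11, and the large subunit 42 of 46 with a median of 0.08. The standard genes ran from -0.09 for Rpl37 to 0.19 for Rpl23.

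**Figure D2:**
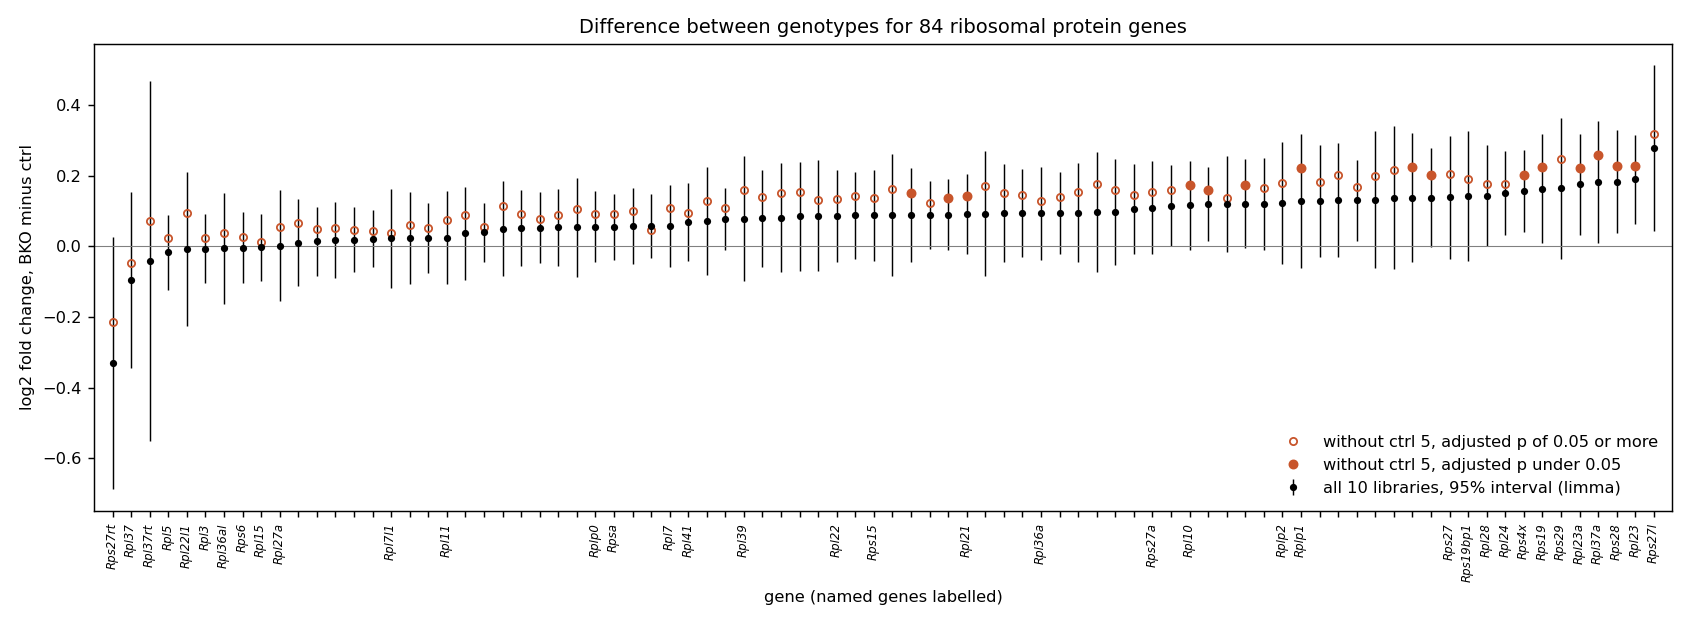
Log2 fold change (BKO minus ctrl) of each of the 84 genes with its 95% interval from limma over all 10 libraries (black), and the value without ctrl 5 (red, filled where the adjusted p was under 0.05), with labels for the named genes. With all libraries 75 points lie above 0 and none reached an adjusted p under 0.05, and without ctrl 5 filled points mark the 15 genes that did.

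Members of both subunits were high together or low together in single libraries. For each member the deviation of each library from the gene's own mean over 10 libraries was taken on the log2 scale. In ctrl 5, 83 of 84 members lay above their own mean, and the median deviation was 0.15. The other ctrl libraries lay at -0.07, -0.09, -0.12 and -0.07 for ctrl 1 to 4, with 4 to 13 members above their mean. In BKO, libraries 1, 3, 4 and 5 lay at 0.06, 0.06, 0.05 and 0.12, with 64 to 77 members above their mean, while BKO 2 lay at -0.08 with 13. So ctrl 5 stood with the higher BKO libraries and BKO 2 with the lower ctrl libraries. Ctrl 5 was the highest ctrl library for 79 of the 84 genes and the highest of all 10 for 44, and BKO 2 was the lowest BKO library for 67.

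The summed FPKM of the 84 genes gave the same picture. The sums were 32601, 32221, 31325, 32377 and 37931 FPKM in ctrl 1 to 5, and 35448, 32434, 35475, 34939 and 37302 FPKM in BKO 1 to 5. As a share of all FPKM of the library they ran from 4.15% in ctrl 3 to 4.95% in ctrl 5. The mean sum was 33291 ± 2639 FPKM (SD, n = 5) in ctrl and 35120 ± 1749 FPKM (SD, n = 5) in BKO, and the groups overlapped. Without ctrl 5 the ctrl mean was 32131 ± 559 FPKM (SD, n = 4). BKO 2 then still lay below ctrl 1, and the other 4 BKO libraries lay above all of ctrl 1 to 4.

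The movement was shared by nearly all members. The SD of a member between libraries of one genotype had a median of 0.11 on the log2 scale, and of 0.07 once the median deviation of the other 83 members was taken off each library. It became smaller in 74 of 84 members. In at least 8 of 10 libraries, 73 of 84 members deviated in the same direction as the median of the others. The fewest were 4 libraries for Rps6, followed by 5 for Rpl15 and Rps27rt and 6 for Rpl37rt, Rps27l, Rpl7l1, Rpl29 and Rps19bp1. Rpl29 was picked after its values were seen. The median deviations per library also held within each subunit, at 0.14 in ctrl 5 and -0.09 in BKO 2 for the small subunit and at 0.15 and -0.07 for the large subunit.

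Other short mRNAs were also high in ctrl 5 and BKO 5 and low in BKO 2, though their libraries did not follow the members' order throughout. The 42 short mRNAs of respiratory chain subunits had median deviations of 0.18 in ctrl 5, 0.16 in BKO 5 and -0.16 in BKO 2, and all 42 lay above their own mean in ctrl 5 and in BKO 5 and none did in BKO 2. In that list BKO 2 was the lowest library, whereas ctrl 3 was the lowest for the members. Mitochondrial ribosomal proteins, which share no subunit with the cytosolic ribosome, had smaller medians of 0.09, 0.08 and -0.06 in those libraries. Among non-members of at least 50 FPKM, the 731 genes with transcripts under 1000 bases had medians of 0.06, 0.04 and -0.06 there, and the 313 with transcripts of 4000 bases or more had -0.04, -0.05 and -0.03. The part of transcript length in these differences between libraries was not tested. After each library was centred on the 500 genes of nearest transcript length, a choice made after the data were seen, the members' median log2 fold change was 0.08 and again no member passed. Choroid plexus markers, whose sums ran from 151 to 2975 FPKM, were low in ctrl 2, ctrl 4, BKO 3 and BKO 4, a split that the ribosomal protein medians did not share.

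**Figure D3:**
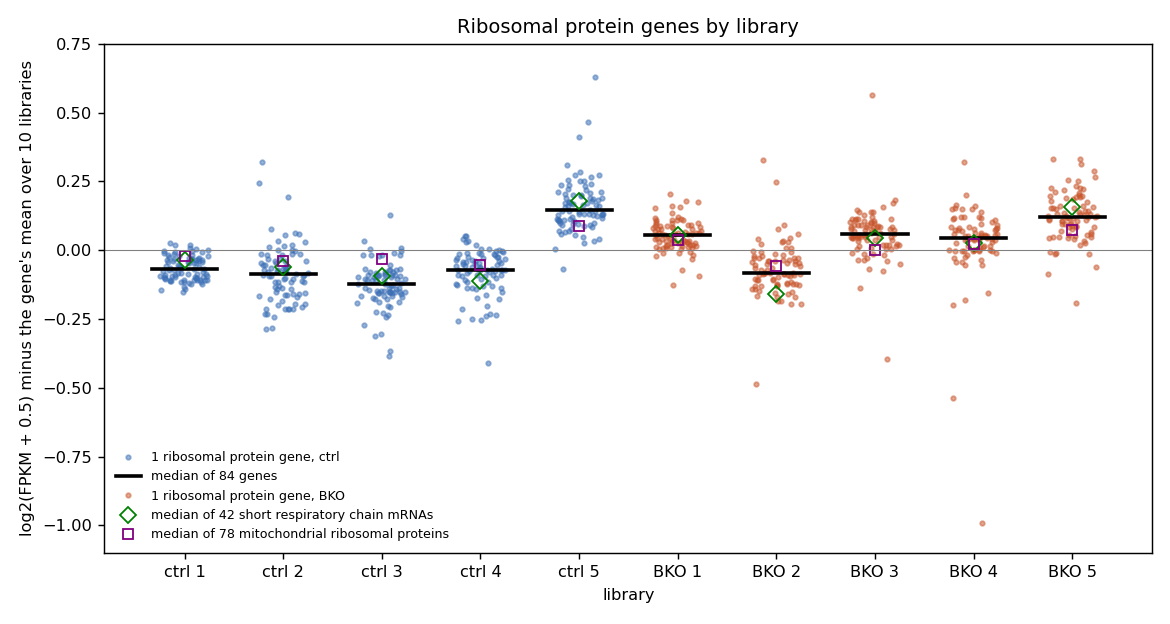
Deviation of each of the 84 genes from its own mean over 10 libraries (log2(FPKM + 0.5), 1 point per gene, black bar the median) in each library, with medians of 42 short respiratory chain mRNAs (diamonds) and 78 mitochondrial ribosomal proteins (squares). Ctrl 5 at 0.15 lies apart from the other ctrl libraries, BKO 2 at -0.08 lies below the other BKO libraries, and the single low points in BKO 4 are Rpl37rt and Rpl37.

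Rpl23, a protein of the large subunit that also binds MDM2, came nearest to the threshold. It was measured at 417.2, 434.4, 417.4, 421.2 and 480.7 FPKM in ctrl 1 to 5 and at 491.6, 437.4, 496.4, 502.3 and 552.0 FPKM in BKO 1 to 5. Every BKO library but BKO 2 was above ctrl 5, the highest of the ctrl libraries, so the groups overlapped through BKO 2. BKO exceeded ctrl by a log2 fold change of 0.19 (SE 0.0586, 95% interval 0.06 to 0.32, limma adjusted p = 0.0815). Leaving out ctrl 5 gave 0.23 with an adjusted p of 0.0255 (limma), and leaving out BKO 2 gave 0.23 with one of 0.0162.

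Rps4x, the X-linked gene of a small subunit protein, read 343.4, 325.2, 329.7, 360.3 and 398.5 FPKM in ctrl and 401.6, 365.7, 394.2, 401.8 and 390.3 FPKM in BKO. Ctrl 1 to 4 lay below every BKO library and ctrl 5 lay among them. The log2 fold change was 0.16 (SE 0.0538, limma adjusted p = 0.125), and 0.20 (limma adjusted p = 0.0123) without ctrl 5. Rpl23a, which sits at the exit of the peptide tunnel, read 567.9, 559.6, 514.1, 498.3 and 628.5 FPKM in ctrl and 676.2, 548.9, 634.5, 619.4 and 643.0 FPKM in BKO. Again ctrl 5 stood with the BKO libraries and BKO 2 with the ctrl libraries. This gave a log2 fold change of 0.17 (SE 0.0662, limma adjusted p = 0.169), and 0.22 (limma adjusted p = 0.0452) without ctrl 5.

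Rps28 of the small subunit read 222.1, 205.4, 188.2, 192.6 and 236.6 FPKM in ctrl and 220.2, 214.2, 249.8, 246.2 and 253.8 FPKM in BKO. BKO 3, 4 and 5 lay above every ctrl library and BKO 1 and 2 among them, with a log2 fold change of 0.18 (SE 0.0677, limma adjusted p = 0.160). Without ctrl 5 it was 0.23 (limma adjusted p = 0.0499). Rpl24, a large subunit protein at the bridge to the small subunit, stood at 346 ± 15.8 FPKM (SD, n = 5) in ctrl and 385 ± 30.9 FPKM (SD, n = 5) in BKO, a log2 fold change of 0.15 (limma adjusted p = 0.160). The other members in the upper end were Rpl37a, Rps29, Rps19 and Rpl28 at 0.18, 0.16, 0.16 and 0.14, and Rps19bp1 at 0.14, with limma adjusted p from 0.256 to 0.435.

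The 15 members higher in BKO without ctrl 5 (limma adjusted p from 0.0123 to 0.0499), where 3.56% of all genes tested were higher, came from both subunits. Among them were Rps4x, Rps19 and Rps28 of the small subunit, and Rpl10, Rpl21, Rpl23, Rpl23a, Rpl37a and Rplp1 of the large subunit. Their log2 fold changes without that library ran from 0.14 to 0.26, the highest being Rpl37a. Rpl21 shows how 1 library decided the call, with 684.6, 677.8, 683.8, 676.0 and 814.8 FPKM in ctrl and 777.8, 714.0, 754.4, 746.7 and 764.2 FPKM in BKO. Ctrl 5 was the highest of all 10 and every other ctrl library lay below every BKO library. Its log2 fold change was 0.09 (SE 0.0528, limma adjusted p = 0.421) with all libraries and 0.14 (limma adjusted p = 0.0333) without ctrl 5. The library is left in here, since nothing in the labels sets it apart. Its markers differed in part from those of ctrl 1 to 4. The median deviation of oligodendrocyte markers was 0.87 in ctrl 5 and 0.58 to 0.71 in the others. That of cortical neuron markers was -0.07, against 0.02 to 0.14. For endothelial cell markers it was -0.30 in ctrl 5 and -0.09 to -0.05 in the others. Astrocyte and microglia markers lay within the range of the others. The part of this in the ribosomal protein values was not tested.

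**Figure D4:**
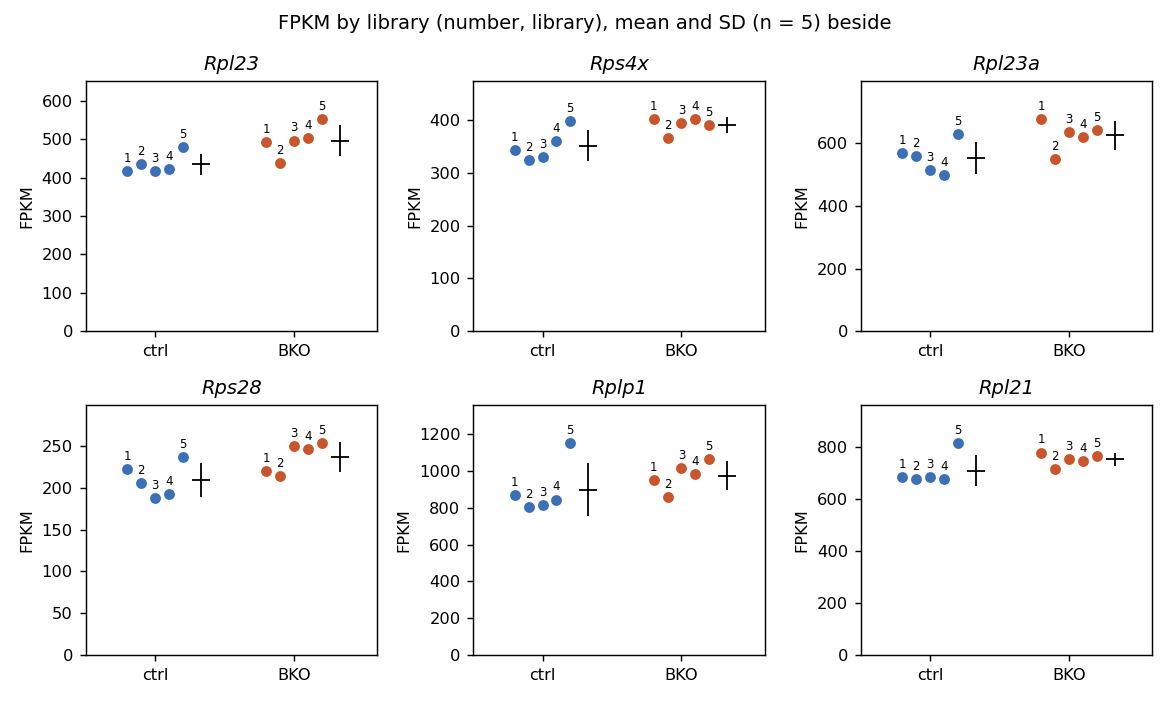
FPKM in each library (points, numbered) with the mean and SD (n = 5) of each group for Rpl23, Rps4x, Rpl23a, Rps28, Rplp1 and Rpl21. In Rpl21 ctrl 5 at 814.8 FPKM lies above all BKO libraries and ctrl 1 to 4 lie below them.

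The P stalk, made of Rplp0 with pairs of Rplp1 and Rplp2, recruits the elongation factors to the ribosome. Rplp1 read 872.9, 803.6, 817.6, 846.0 and 1154.2 FPKM in ctrl and 952.5, 859.1, 1018.7, 983.2 and 1067.0 FPKM in BKO. Ctrl 5 was the highest of all 10 libraries, and the groups overlapped. BKO lay above ctrl by a log2 fold change of 0.13 (SE 0.0886, limma adjusted p = 0.508), and 0.22 (limma adjusted p = 0.0346) without ctrl 5. Rplp2 stood at 251 ± 27.0 and 274 ± 29.2 FPKM, a log2 fold change of 0.12 (limma adjusted p = 0.481), and Rplp0 at 339 ± 22.6 and 352 ± 10.1 FPKM, one of 0.06 (limma adjusted p = 0.611).

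Rps6, the substrate of the S6 kinases, was among the members nearest to 0. It stood at 343 ± 22.9 FPKM (SD, n = 5) in ctrl and 342 ± 9.55 FPKM (SD, n = 5) in BKO, and the 95% interval of its log2 fold change ran from -0.11 to 0.10. Rpl5 and Rpl11, which bind 5S rRNA and together hold back MDM2, were close to it. Rpl5 stood at 349 ± 22.8 and 344 ± 16.2 FPKM, a log2 fold change of -0.02 (limma adjusted p = 0.904), and Rpl11 at 336 ± 28.1 and 342 ± 26.7 FPKM, one of 0.02 (limma adjusted p = 0.895). Both had ctrl 5 as the highest ctrl library, at 389.0 and 385 FPKM. Rpsa, which is also the laminin receptor, read 683 ± 41.7 and 709 ± 12.6 FPKM with a log2 fold change of 0.06, and Rps27a, a ubiquitin fusion, 338 ± 29.7 and 364 ± 24.1 FPKM with 0.11. The lower end further held Rpl3, Rpl15 and Rpl27a, proteins of the large subunit, with log2 fold changes from -0.0068 to 0.0018 and limma adjusted p from 0.964 to 0.996.

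The largest single departures from the shared movement were those of Rpl37rt, Rpl37, Rps27rt and Rps27l, a standard gene, both retrogene symbols and a paralogue. Rps27l, a paralogue of Rps27 known in human cells as a target of p53, had the highest log2 fold change of all 84 genes. It read 21.9, 22.5, 16.4, 16.1 and 22.0 FPKM in ctrl and 22.9, 27.3, 21.9, 27.1 and 20.7 FPKM in BKO. BKO 2 and BKO 4 were the highest and ctrl 3 and ctrl 4 the lowest, and BKO 3 and BKO 5 lay among the ctrl libraries. Its log2 fold change was 0.28 (SE 0.109, 95% interval 0.04 to 0.51, limma adjusted p = 0.190). BKO 2, low for most members, lay 0.41 above the other members in this gene on the log2 scale. As a percent of Rps27, Rps27l made up 4.85% ± 0.589 in ctrl and 5.43% ± 1.12 in BKO (SD, n = 5 each).

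Rps27rt had the lowest log2 fold change of all. It read 5.4, 6.9, 4.8, 5.6 and 8.7 FPKM in ctrl and 5.0, 3.8, 4.0, 4.8 and 7.0 FPKM in BKO. Libraries number 5 were the highest of both groups, and the groups overlapped. This corresponds to a log2 fold change of -0.33 (SE 0.166, 95% interval -0.69 to 0.03, limma adjusted p = 0.329). Rps27 itself stood at 408 ± 48.0 and 448 ± 45.3 FPKM with a log2 fold change of 0.14 (limma adjusted p = 0.420), so that Rps27rt was 1.53% ± 0.210 of Rps27 in ctrl and 1.09% ± 0.196 in BKO. With 89.5% of its windows shared with other genes, the value of Rps27rt cannot be told apart from reads of other copies.

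Rpl37 and its retrogene symbol Rpl37rt both stood low in 1 library. Rpl37 read 643.4, 754.2, 622.6, 628.1 and 777.4 FPKM in ctrl and 712.9, 634.0, 669.6, 455.1 and 771.7 FPKM in BKO, so BKO 4 was the lowest of all 10. It lay 0.58 below the other members on the log2 scale in that library, the largest departure of a standard gene. The log2 fold change of -0.09 (95% interval -0.34 to 0.15, limma adjusted p = 0.748) was 0.03 without BKO 4. Rpl37rt read 5.4, 7.1, 4.9, 4.9 and 8.4 FPKM in ctrl and 6.7, 7.1, 9.0, 2.7 and 5.5 FPKM in BKO, and again BKO 4 was the lowest, 1.04 below the other members. Its log2 fold change was -0.04 (95% interval -0.55 to 0.47, limma adjusted p = 0.958) and 0.20 without BKO 4. Rpl37 shared 21.5% of its windows of 100 bases with other annotated genes, and Rpl37rt shared 51.8%. The share between these 2 genes alone was not taken, so how far their reads can be told apart is unknown.

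Rpl22l1, the paralogue that can take the place of Rpl22, was the highest relative after Rpl36al. It read 63.8, 58.6, 65.5, 69.8 and 91.7 FPKM in ctrl and 78.1, 63.4, 71.6, 60.7 and 70.9 FPKM in BKO. Ctrl 5 was the highest of all 10, and the groups overlapped. The log2 fold change was -0.01 (95% interval -0.23 to 0.21, limma adjusted p = 0.983), and Rpl22l1 made up 57.3% ± 5.54 of the level of Rpl22 in ctrl and 53.6% ± 4.51 in BKO. Rpl22 itself stood at 121 ± 10.9 and 129 ± 7.50 FPKM. Rpl36al stood at 159 ± 12.2 and 159 ± 18.9 FPKM beside its X-linked relative Rpl36a at 267 ± 15.7 and 285 ± 25.6 FPKM, and made up 59.7% ± 2.20 and 55.8% ± 4.08 of it. Rpl7l1 stood at 39.2 ± 2.83 and 39.8 ± 3.24 FPKM, 12.0% ± 1.01 and 11.7% ± 1.21 of Rpl7. The X-linked genes Rps4x, Rpl10, Rpl39 and Rpl36a had log2 fold changes of 0.16, 0.12, 0.08 and 0.09, none with an adjusted p under 0.05.

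**Figure D5:**
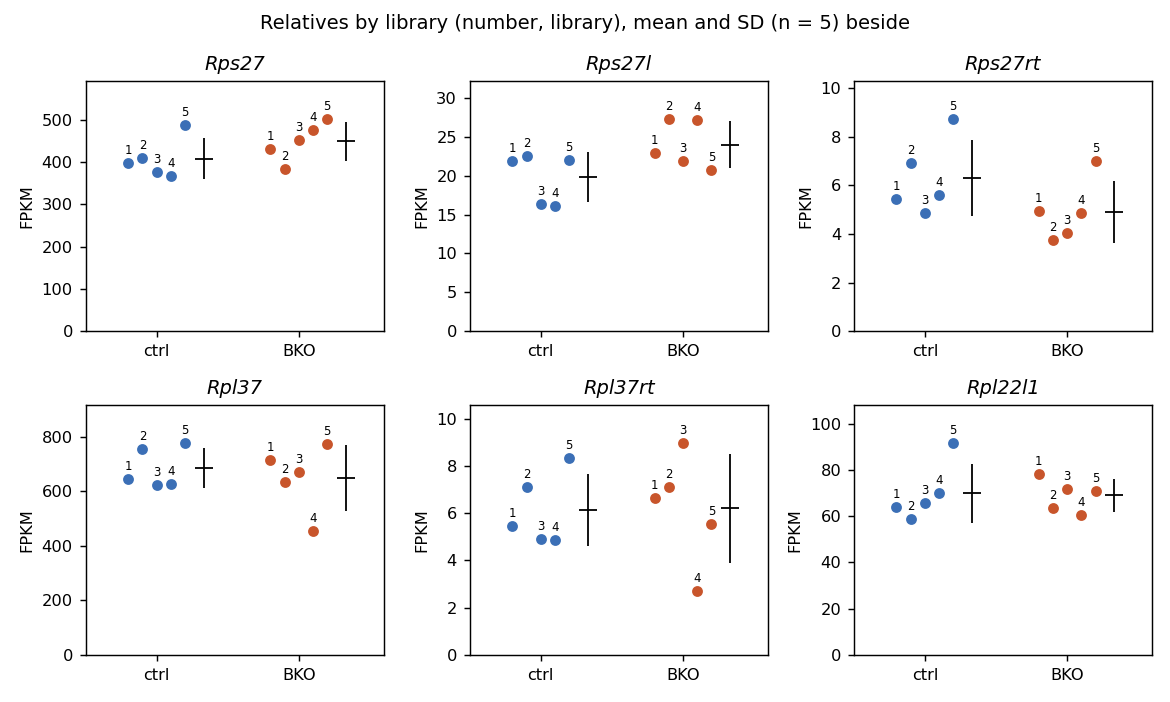
FPKM in each library (points, numbered) with the mean and SD (n = 5) of each group for Rps27 and its relatives Rps27l and Rps27rt, for Rpl37 and Rpl37rt, and for Rpl22l1. BKO 4 is the lowest point for both Rpl37 (455.1 FPKM) and Rpl37rt (2.7 FPKM), and the groups overlap in every panel.

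Genes that act on ribosomal protein mRNAs or work beside the ribosome were read from lists of the same table, and the counts are over all genes tested. Of 17 genes that control TOP mRNAs, 1 was higher and 0 were lower. It was Eif4ebp1, which encodes 4E-BP1, the mTORC1 substrate that holds back the cap-binding factor eIF4E, at 9.19 ± 1.04 FPKM (SD, n = 5) in ctrl and 39.0 ± 6.47 FPKM (SD, n = 5) in BKO, a log2 fold change of 2.02 (SE 0.10, limma adjusted p = 9.52e-09). Larp1, which binds the TOP motif, had a log2 fold change of 0.10 (limma adjusted p = 0.254). Of 20 other TOP mRNAs, 1 was higher and 0 were lower, with a median log2 fold change of 0.07. The 1 was Vim, an intermediate filament of astrocytes and vessel cells, with a log2 fold change of 0.80 (limma adjusted p = 5.54e-06), and it stood apart from Pabpc1, Eef2 and Eef1b2 at 0.17, 0.10 and 0.16 (limma adjusted p from 0.0793 to 0.191).

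Among 38 initiation factors 1 was higher and 0 were lower, with a median of 0.02. Eif1, which guards the choice of start codon, read 791.7, 697.7, 730.5, 762.7 and 819.4 FPKM in ctrl and 912.7, 824.1, 919.5, 932.8 and 938.0 FPKM in BKO, and no library of the groups overlapped. Its log2 fold change was 0.25 (SE 0.0515, limma adjusted p = 0.00741). Among 12 elongation factors and their regulators 1 was higher and 1 was lower. Eef2k, the kinase that turns off the elongation factor eEF2, rose from 19.2 ± 0.225 to 24.2 ± 2.31 FPKM (log2 fold change 0.32, limma adjusted p = 0.00534), and Eif5a2 fell from 21.5 ± 1.38 to 17.2 ± 2.35 FPKM (-0.32, limma adjusted p = 0.0370).

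The making of ribosomes showed little that passed. None of 15 genes of RNA polymerase I, 50 of small subunit biogenesis, 57 of large subunit biogenesis, 17 escort factors of ribosomal proteins, 23 of ribosome quality control and 11 of the MYC family had an adjusted p under 0.05 (limma). An unadjusted p under 0.05 was reached by 1, 6, 3, 2, 1 and 4 of them, against 17.5% of all genes tested, and their medians lay between -0.003 and 0.03. The nearest to the threshold was Heatr3, which escorts RPL5 to the nucleus, with a log2 fold change of -0.18 (limma adjusted p = 0.0936). Of 78 mitochondrial ribosomal proteins 1 was higher, Mrpl51 at 74.0 ± 3.45 and 83.7 ± 4.03 FPKM (log2 fold change 0.18, limma adjusted p = 0.0374), and the median was 0.01.

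Of 12 genes of the p53 axis that Rpl5 and Rpl11 can act on, 2 were higher and 1 was lower. Cdkn1a, an inhibitor of the cell cycle, rose from 14.8 ± 1.95 to 28.1 ± 5.51 FPKM (log2 fold change 0.89, limma adjusted p = 0.000221), and Sesn2, a brake on mTORC1, from 6.64 ± 0.563 to 12.7 ± 0.893 FPKM (0.88, limma adjusted p = 3.88e-06). Rprm, a target of p53 that arrests the cell cycle, fell from 79.8 ± 3.74 to 68.5 ± 4.72 FPKM (-0.22, limma adjusted p = 0.0214). Both Cdkn1a and Sesn2 also answer to stress signals other than p53. Rps27l, the p53 target among the members, did not pass, with the values given above.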

How the data were processed

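Brain cortex RNA of 10 libraries was analysed from 1 deposited table of 22198 genes, in FPKM that the authors computed and rounded to 2 decimals. STAR, HTSeq and the mm39 build are named without versions in the submitters' processing notes, and an MGIEasy kit was used to build the libraries, per the labels' protocols. The treatment of reads that match several genes, the read length, the strand setting and the FPKM formula are not given in the sources used here. The table had 0 columns of other samples. Depth is unknown, and the steps between low values put relative depth at 0.892 to 1.14, an approximate estimate (16 of 45 pairs of libraries within 0.03 log2 of the fitted depths).

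A linear model of genotype was fitted to log2(FPKM + 0.5) of the 14447 genes that reached 0.5 FPKM in 5 or more of the 10 libraries, by limma (version 3.58.1, R version 4.3.3) with a trended prior variance, 2-sided p and Benjamini-Hochberg adjustment. The rule for members used the same limit, so all 84 were tested. A gene passed at an adjusted p under 0.05. The SE printed is the moderated one. The fit was tested on simulated data. Tests that need counts were not run. Some single-gene results are withheld for evaluation and not reported here.

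Members and lists were chosen with earlier results of these data known. Always named were the P stalk genes, Rps6, Rpl5, Rpl11, Rpsa, Rps27a and genes with a paralogue. To these came the 10 highest and 10 lowest log2 fold changes, the 5 highest and 5 lowest levels, and up to 4 genes with the smallest p from each list.

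Tried besides were the pseudocounts 0.1 and 1, filters of 0 and 2 FPKM, scaling by median of ratios, equal sum, quantiles or trimmed mean of M values, a replicate block, library weights, a robust fit and the omission of each library. Lengths and shared windows came from GENCODE M21 (all 84 members matched), start windows from RefSeq (64 matched, the first listed for 9 with several). Summaries and figures were made in Python 3.11.15 (pandas 2.3.3, matplotlib 3.10.9, numpy 2.4.6).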

Additional observations from a re-analysis of the deposited data

Results flagged for a closer look

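A set of values was flagged where the highest or lowest of 5 libraries of one genotype stood apart. The gap had to exceed 0.71 of the group's whole range, which chance gives in about 1 in 20 sets. Of 76 sets looked at, 7 were flagged, each with ctrl 5 as the highest library. The median deviation of the 84 members was 0.1461 in ctrl 5, and the nearest ctrl library was at -0.07. Rplp1 stood at 1154 FPKM there, with the next ctrl library at 873. Rpl21 stood at 815 with the next at 685, Rpl23 at 481 with the next at 434, and Rpl39 at 388 with the next at 303 FPKM. Rpl5 stood at 389.0 with the next at 345, and Rpl11 at 385 with the next at 331 FPKM. Over all 84 members, 19 stood apart in this way in ctrl, each with ctrl 5 as the library, and 5 in BKO, 4 of them with BKO 2. The members move together, so these are not separate flags.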

How the results depend on the processing

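The number of ribosomal protein genes higher in BKO was 0 with all libraries and 0 to 15 when 1 library was left out. It was 15 without ctrl 5 and 2 without BKO 2 (Rpl23 and Rpl24), and 0 without each of the other 8. It was 1 with rescaling to an equal sum (Rpl23, log2 fold change 0.21), 4 with quantile normalization (Rpl23, Rpl23a, Rpl24 and Rps3a1), and 2 with library quality weights (Rpl23 and Rps4x). Over the alternatives that called Rpl23, its adjusted p (limma) ran from 0.00762 to 0.0421. With the replicate number as a block it was 1. The number lower was 0 in all alternatives run, and the alternatives not named here left the number higher at 0. The median log2 fold change of the members stayed positive, from 0.0637 without ctrl 3 to 0.1391 without ctrl 5. All genes that passed, in either direction, numbered 836 of 14447, and 647 to 847 with 1 library left out (759 without BKO 2). They numbered 855 with rescaling to an equal sum, 805 with quantile normalization and 905 with library quality weights, each of 14447. The cause of these shifts was not tested.

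No pairing of the libraries by the replicate numbers of the labels was seen. Correlations of same-numbered libraries ran from -0.169 to 0.086, and number 1 alone had its own number as the best partner. Low correlations cannot exclude that same-numbered libraries were paired. With the replicate block, 1 member was higher (Rpl23, limma adjusted p = 0.0421), and 702 genes passed in all.

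Of 814 values of 37 named members under the alternatives, 749 kept direction and side of the threshold, 18 in 10 genes came to pass it and 47 in 11 genes changed sign. The 11 lay near 0 or rested on 1 library. With rescaling to an equal sum, log2 fold changes turned to 0.0185 for Rpl15, 0.0137 for Rpl22l1, 0.0149 for Rpl3, 0.0158 for Rpl36al, 0.0042 for Rpl5 and 0.0170 for Rps6, under a shift of all genes' median to 0.0207. Quantile normalization gave 0.0259 for Rpl15, 0.0357 for Rpl3 and 0.0159 for Rpl36al. Library quality weights gave 0.0217 for Rpl22l1, 0.0036 for Rpl3, 0.0013 for Rpl36al and 0.0022 for Rps6. Rpl27a turned to -0.0005 with median-of-ratios rescaling and to -0.0138 when centred on genes of like transcript length, the alternative chosen after seeing the data. With 1 library left out, values ran from -0.0219 to 0.0738 for Rpl11, from -0.0323 to 0.0131 for Rpl15, from -0.0667 to 0.0938 for Rpl22l1, from -0.0381 to 0.0545 for Rpl27a, from -0.0306 to 0.0243 for Rpl3, from -0.0709 to 0.0366 for Rpl36al, from -0.1627 to 0.0276 for Rpl37, from -0.188 to 0.2015 for Rpl37rt, from -0.0415 to 0.0222 for Rpl5, from -0.0057 to 0.0728 for Rpl7l1 and from -0.0391 to 0.0256 for Rps6. The number of libraries and the unknown depth limit the precision, most for the retrogene symbols near 5 FPKM.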
